A study of Mus musculus with 2 samples.

Results

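The core glycolytic enzymes described here are 10 genes for steps from the entry of glucose to lactate, in the isoenzyme that serves fast skeletal muscle: Hk2, Gpi1, Pfkm, Aldoa, Tpi1, Gapdh, Pgk1, Pgam2, Eno3 and Ldha. Pyruvate kinase is not among them and is given with the other isoenzymes. The genes were chosen by name. All probes outside the control classes that the array design lists under one of these symbols, or whose transcript accession now carries one, were taken, which gave 14 probes. All 10 genes had at least 1 probe that was well above background and not saturated on both arrays, among 15427 such genes of 21587 symbols and 41174 probes. Transcript levels were measured in gastrocnemius, a mostly fast-fibre calf muscle, of male C57BL/6 mice. The denervated group had been without its nerve supply for 14 days, from the age of 7 weeks to 9 weeks. The control group was of the same strain, sex and age, and its labels name it both as a control and as a sham control, so whether these mice were operated on is unclear. RNA of 6 mice was pooled for each group and each pool was read on 1 single-colour Agilent array, which leaves no replicate and no test: every difference describes these 2 pools only.

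Glycolysis turns glucose, or the glucose phosphate released from glycogen, into pyruvate in the cytosol and gives ATP without oxygen. Fast muscle fibres hold its enzymes at very high levels, so that they can contract briefly at a rate that mitochondria alone could not sustain. The early steps spend ATP to make a sugar with a phosphate at each end, aldolase splits it, and the later steps recover ATP and pass electrons to NADH. Lactate dehydrogenase then returns NADH to NAD, so that the pathway can go on.

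Signals are the scanner software's processed intensities, in arbitrary units, and are compared only within a probe. A difference is log2 of the denervated signal minus log2 of the control signal after each array was divided by its 75th percentile, 788 for control and 1063 for denervated muscle. The ± after a difference is the software's technical error of the pair of spots, 0.20 for most probes, and holds none of the spread between mice. Scaling to spike-in control RNA instead adds 0.40 to every difference and moves the median of all measured genes from -0.11 to 0.29. Counts past 2-fold are therefore also given on that scale.

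In the denervated pool 7 of the 10 enzymes were at least 2-fold lower and none was 2-fold higher, where the shares of all measured genes past these limits were 8.51% and 6.98%. A difference below 0 was found for 9 of the 10, against 57.2% of all measured genes. The median difference of the 10 was -1.31. Most of the enzymes are among the brightest genes of the array, and among the 596 genes with a control signal of at least 32768 the share at least 2-fold lower was 15.8% and the median difference -0.38. With spike-in scaling, 4 of the 10 enzymes were at least 2-fold lower, where 4.12% of all genes were, and 9 of 10 were again below 0, against 32.2% of all genes. The muscle was measured as a whole, so fewer cells of a type and less RNA per cell cannot be told apart.

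**Figure D1:**
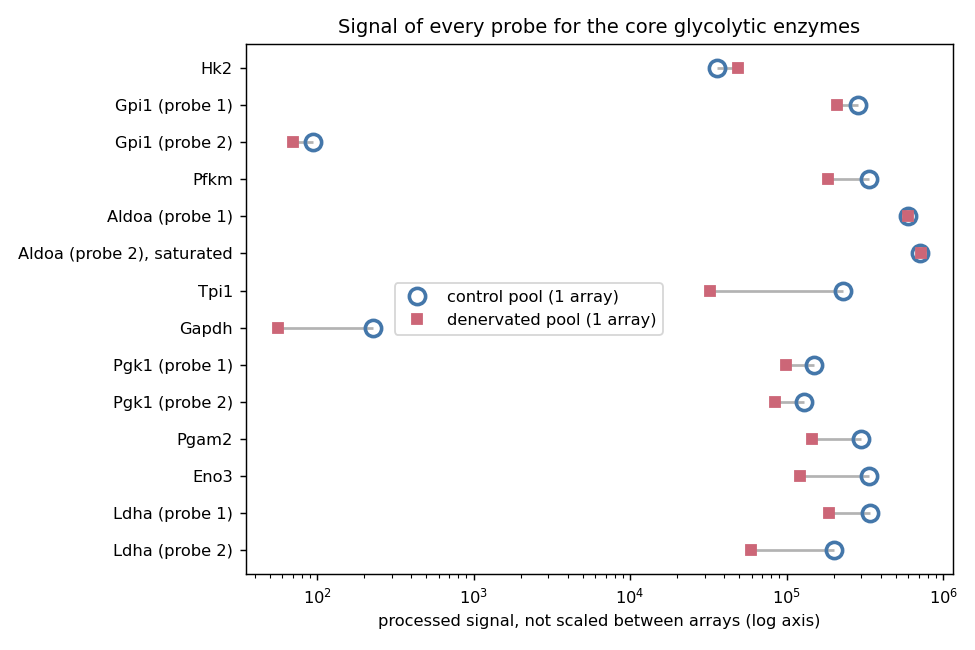
Processed signal of each of the 14 probes in the control pool (open circles) and the denervated pool (filled squares), on a log axis, with 1 array per group and no error bars. The Tpi1 and Gapdh probes show the widest gaps, the unsaturated Aldoa probe sits at about the same signal in both pools before scaling, and signals of different probes are not comparable with each other.

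The enzymes that prime the sugar did not share 1 difference. Hexokinase II, encoded by Hk2, traps glucose in the cell as glucose phosphate and is the insulin-responsive hexokinase of muscle. Its probe (NM_013820, mm8 chr6:82690720-82690779, minus strand) read 36073 in the control and 48989.9 in the denervated muscle. The difference was 0.01 ± 0.20 after 75th percentile scaling and 0.41 with spike-in scaling, so Hk2 was the 1 member that was not lower. Gpi1 encodes glucose phosphate isomerase, which makes fructose phosphate. The Gpi1 probe of higher signal (NM_008155, chr7:33910936-33910995, minus strand) was printed at 10 spots, of which 8 were usable, and read 284324 and 211021. The difference was -0.86 ± 0.20, 1.82-fold lower, and its SD over the 8 spots was 0.04. The other Gpi1 probe (L09104, chr7:33918603-33918662) was dim, at 94.99 and 70.6, and gave -0.86 ± 0.23. Both Gpi1 probes therefore lay just short of 2-fold. Pfkm encodes the muscle subunit of phosphofructokinase, the committed and most regulated step. Its probe (NM_021514, chr15:97960316-97960375, plus strand) read 337630 in the control and 183791 in the denervated muscle, a difference of -1.31 ± 0.20, 2.48-fold lower. With spike-in scaling it was -0.91, no longer past 2-fold.

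At the split of the sugar, the 2 enzymes differed most from each other among neighbours in the pathway. Aldoa encodes the muscle aldolase that cuts fructose bisphosphate into a pair of triose phosphates. One of its probes (NM_007438, chr7:126586433-126586492, minus strand) was saturated on both arrays, at 709123 and 720811, with 24 of 53 pixels saturated in the control spot and 39 of 51 in the denervated spot. No difference is given for it. The other Aldoa probe (chr7:126586235-126586249 as the design lists it) was saturated on neither array and read 597827 and 597225. These signals lay below the lowest saturated signal, 709123 for control and 701992 for denervated muscle. The difference was -0.43 ± 0.20 after 75th percentile scaling but -0.04 with spike-in scaling and -0.07 with signal-dependent loess centring. Tpi1 encodes triose phosphate isomerase, which converts one triose phosphate into the other. The Tpi1 probe (NM_009415, chr6:124776548-124776607, minus strand) read 230597 in the control and 32346 in the denervated muscle. This difference, -3.27 ± 0.20 or 9.62-fold lower, was the most negative of the 10 enzymes, and it was -2.87 with spike-in scaling.

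In the later steps, the 5 enzymes from Gapdh to Ldha were all at least 2-fold lower after 75th percentile scaling. Gapdh encodes glyceraldehyde phosphate dehydrogenase, which makes NADH. The single probe listed under Gapdh was designed on a clone (AK169742, chr6:125127708-125127767, minus strand) and was dim, at 228 in the control and 56.1 in the denervated muscle. The lowest signals well above background were 14.5 and 17.9 on these arrays. The difference was -2.46 ± 0.23, 5.48-fold lower, and was -1.73 with the normexp background correction. Probes of Gapdh-like sequence listed under other names, described further on, were bright and gave smaller differences. Pgk1 encodes phosphoglycerate kinase, the first step to return ATP. The Pgk1 probe of higher signal (NM_008828, chrX:102406147-102406206, plus strand) was printed at 10 spots and read 150430 and 98919. The difference was -1.04 ± 0.20, 2.05-fold lower, with an SD of 0.05 over spots. The other Pgk1 probe overlaps it by position (chrX:102406169-102406228), read 128209 and 83806, and gave -1.05. Pgk1 was thus the member just inside 2-fold, as Gpi1 was the one just outside, and with spike-in scaling it was at -0.64.

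The last steps, Pgam2, Eno3 and Ldha, lay between -1.89 and -1.31. Pgam2 encodes the muscle phosphoglycerate mutase. Its probe (NM_018870, listed across chr11:5701822-5703040, minus strand) read 297357 in the control and 145485 in the denervated muscle, a difference of -1.46 ± 0.20, 2.76-fold lower, and -1.07 with spike-in scaling. Eno3 encodes the muscle enolase, which makes phosphoenolpyruvate. The Eno3 probe (NM_007933, chr11:70478622-70478681, plus strand) read 336586 and 122241, which was 3.72-fold lower at -1.89 ± 0.20, and -1.50 with spike-in scaling. Ldha encodes the lactate dehydrogenase subunit that predominates in fast muscle. Its probe of higher signal (NM_010699, chr7:46723561-46723620, plus strand) read 341857 and 185640, a difference of -1.31 ± 0.20 or 2.48-fold lower. The other Ldha probe, of the same transcript but listed across chr7:46722098-46723027, read 199917 and 59281, a difference of -2.19 ± 0.20 or 4.55-fold lower. The Ldha probes differed by more than their technical errors, and only the latter stayed past 2-fold with spike-in scaling, at -1.79 against -0.92. Exon and UTR positions of the probes were not analysed here, since no annotation of the mm8 build was used.

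Across the 10 genes the differences spanned 3.28 from Tpi1 to Hk2. This span does not depend on how the arrays are scaled by a constant. With spike-in scaling the 4 genes at least 2-fold lower were Tpi1 at -2.87, Gapdh at -2.06, Eno3 at -1.50 and Pgam2 at -1.07. The Gapdh value is that of its dim probe. The bright probe that overlaps it by position, listed as LOC380687, was at -0.51 with spike-in scaling, short of 2-fold. All member probes other than those of Gapdh and the dim Gpi1 probe were bright enough on both arrays to be read at low detector gain and scaled up by the software, which held for 3.03% of all control and 3.83% of all denervated probe readings. The part of this rescaling in the differences was not tested.

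**Figure D2:**
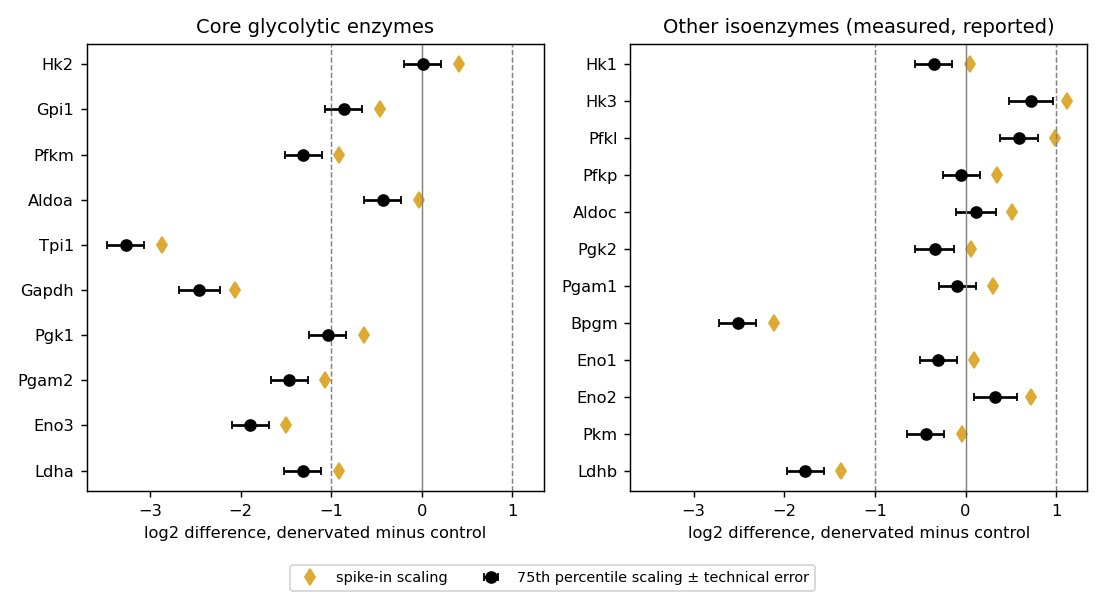
Log2 difference, denervated minus control, of the 10 core enzymes (left) and the measured other isoenzymes reported here (right); circles with bars are the 75th percentile scaling ± technical error and diamonds the spike-in scaling, with 1 array per group. Dashed lines mark 2-fold in either direction: 7 core enzymes lie past the lower one by circles and 4 by diamonds, and of the isoenzymes shown Bpgm and Ldhb by either.

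A list of other glycolytic isoenzymes was set beside the core enzymes. Most serve the same steps in other tissues or cell types, and it also holds Pkm, the pyruvate kinase gene of muscle, and Bpgm, whose enzyme catalyses a side reaction. Of 18 listed, 13 were measured on both arrays, of which 3 were at least 2-fold lower and none as much higher. The shares of all genes were 8.51% and 6.98%. With spike-in scaling 3 were again lower, against 4.12% of all genes. On that scale 1, Hk3, was at least 2-fold higher, against 14.5% of all genes. Their median difference was -0.30, and it was 0.10 with spike-in scaling. The sign of that median is thus not settled, nor is the number below 0, which was 9 of 13 after 75th percentile scaling and 4 of 13 with spike-in scaling. Among hexokinases, Hk1, the widespread form, was at -0.35 ± 0.20, while Hk3, a form of blood cells, read 37.7 in the control and 83.8 in the denervated muscle, a difference of 0.72 ± 0.24, 1.12 with spike-in scaling and 0.10 with the normexp background correction. Liver phosphofructokinase, Pfkl, read 290 and 589, a difference of 0.59 ± 0.21, and the platelet form, Pfkp, was at -0.05 ± 0.21. Pfkm and Pfkl, which encode subunits of the same enzyme, thus differed in sign under both scalings.

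Brain aldolase, Aldoc, was at 0.12 ± 0.22 (-0.19 with normexp), testis phosphoglycerate kinase, Pgk2, at -0.34 ± 0.21 and the widespread mutase, Pgam1, at -0.09 ± 0.20. The enolases Eno1, the widespread form, and Eno2, the neuronal form, were at -0.30 ± 0.20 and 0.33 ± 0.24, where Eno3 was at -1.89. The Eno2 probe was dim and gave -0.06 with normexp. Bpgm, whose enzyme makes and breaks down bisphosphoglycerate, read 12550.2 in the control and 2967 in the denervated muscle, a difference of -2.51 ± 0.20, and its other probe gave -2.66. Ldhb, the lactate dehydrogenase subunit of oxidative tissue, read 46384 and 18397, a difference of -1.77 ± 0.20. Both subunit genes of lactate dehydrogenase were therefore lower in the denervated pool. Pyruvate kinase, the step between enolase and lactate dehydrogenase, is encoded in muscle by Pkm, whose probe read 81977 and 81672, a difference of -0.44 ± 0.20 and -0.04 with spike-in scaling. A further probe listed as Pkm2 (D38379) gave -0.21, or 0.18 with spike-in scaling, so its sign depends on the scaling. Hkdc1, Pklr and Ldhc were not well above background on either array. The Gapdhs probes, for the sperm form, were well above background in the control pool only. The probe printed at 10 spots read 30.6 in the control and 19.5 in the denervated muscle, a difference of -1.08 ± 0.42. This is 2.12-fold lower as a point value and not as a bound, and it was -0.69 with spike-in scaling and -0.68 with normexp. The other Gapdhs probe read 18.4 and 10.2 and was at least 1.39-fold lower, a bound not computed with spike-in scaling.

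Several enzymes of the pathway have processed copies in the genome, and the array carries probes described as related to them under other names, which were chosen by their descriptions after the values of the members had been seen. For Gapdh there were 13, of which 12 were measured. Their signals ran from 28976 to 424605 in control and from 18049 to 282084 in denervated muscle. All 12 differences were below 0, from -1.12 to -0.70 with a median of -0.97, and 5 were at least 2-fold lower, where 8.51% of all genes were. With spike-in scaling they ran from -0.72 to -0.30, so none of the 12 was 2-fold lower. One of them, listed as LOC380687, overlaps the Gapdh probe by position (chr6:125127706-125127875, minus strand) and read 381032 and 273951, a difference of -0.91 ± 0.20, or -0.51 with spike-in scaling. With this probe in place of the dim one, 6 of the 10 enzymes were at least 2-fold lower and their median was -1.17. Which of these probes hybridised to Gapdh transcripts was not tested.

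For Ldha, the 4 related probes were all at least 2-fold lower, from -2.55 to -2.32 (-2.16 to -1.92 with spike-in scaling), nearer to the Ldha probe at -2.19 than to the one at -1.31. For Tpi1, a clone probe 2770 bases away on the same strand (AK053780) read 526 in the control and 59.3 in the denervated muscle, a difference of -3.58 ± 0.23. The Tpi1-like probe on chromosome 10, listed as LOC672731, read 1326 and 165, a difference of -3.44 ± 0.21. With spike-in scaling these were -3.18 and -3.05, so all 3 probes of Tpi1 or like it lay far past 2-fold under both scalings. The pair of Aldoa-ps1 probes gave -1.02 and -0.85 (-0.62 and -0.46 with spike-in scaling), lower than the -0.43 of the Aldoa probe. For Pkm, which is not a member, 1 probe described as related read 269 in the control and 514 in the denervated muscle. Its difference was 0.50 ± 0.21, or 0.90 with spike-in scaling. Signals of near-identical copies cannot be separated on these arrays.

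**Figure D3:**
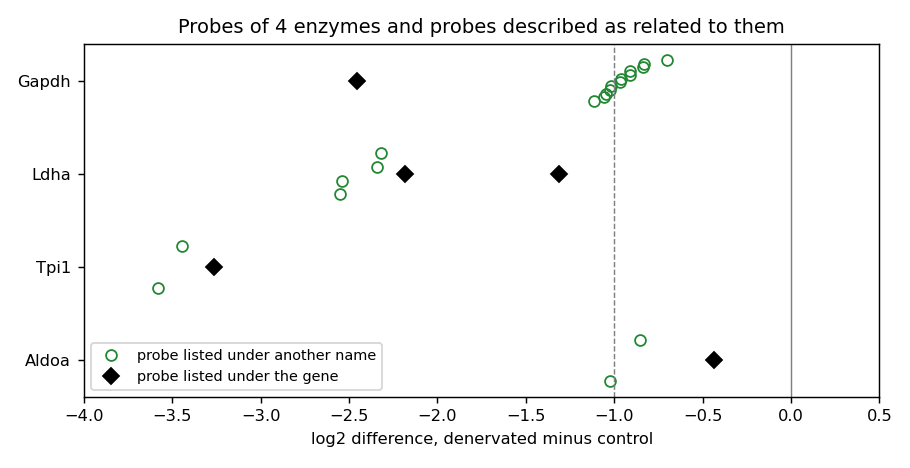
Log2 difference, denervated minus control, of probes listed under Gapdh, Ldha, Tpi1 and Aldoa (filled diamonds, saturated probe left out) and of probes described as related to them under other names (open circles), each from 1 array per group; the dashed line marks 2-fold lower. The single Gapdh diamond at -2.46 lies below all 12 Gapdh-like circles, which lie between -1.12 and -0.70.

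Gapdh is often used as a reference gene, so it was set against 12 other common reference genes, a comparison that no constant scaling can change. The dim Gapdh probe differed more negatively than all 12, by -3.73 to -0.11 with a median of -2.67. The smallest gap, to Tfrc, the transferrin receptor, at -2.35, was within the Gapdh probe's technical error of 0.23. The comparison was not repeated with normexp, where this Gapdh probe was at -1.73. By the bright overlapping probe, the difference was lower than that of 11 of the 12, the exception being Tfrc, and the median was -1.12. The brightest of the reference genes, Rplp0 of the ribosome, was at -0.08, or 0.32 with spike-in scaling. Of the 12 reference genes, 3 were at least 2-fold higher and 1 lower under both scalings. The shares of all genes were 6.98% and 8.51%, or 14.5% and 4.12% with spike-in scaling. The median of the reference genes was 0.21, or 0.61 with spike-in scaling. Each gap thus holds the difference of the reference gene as well as that of Gapdh.

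Genes that feed, regulate or drain the pathway were examined next. Of 20 such genes 19 were measured, of which 9 were at least 2-fold lower and 0 higher, against 8.51% and 6.98% of all genes, with a median of -0.93. With spike-in scaling 6 were lower, against 4.12% of all genes, and 1 higher, with a median of -0.53. Slc16a3, which encodes the lactate exporter of glycolytic fibres, read 69060.1 in the control and 4234 in the denervated muscle, a difference of -4.46 ± 0.20. Pfkfb1, whose enzyme sets the level of the activator of phosphofructokinase, read 13360 and 1045, a difference of -4.11 ± 0.20. Gpd1, whose enzyme diverts triose phosphate to glycerol phosphate and so competes with the enzyme that Tpi1 encodes, was at -3.02 ± 0.20. These 3 were each at least as far from 0 as any core enzyme except Tpi1. Of the 15 glycogen enzymes, all measured, 6 were at least 2-fold lower and 1 higher, with a median of -0.88. With spike-in scaling 4 were lower and 1 higher, with a median of -0.49, against the same shares of all genes. Large differences among them were those of Ppp1r3c, a glycogen-targeting subunit of protein phosphatase, at -2.70 and Phkg1, the catalytic subunit of phosphorylase kinase in muscle, at -1.76.

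All 18 genes of the tricarboxylic acid cycle, which burns pyruvate in mitochondria, were below 0 after 75th percentile scaling, where 57.2% of all genes were, and 16 of 18 with spike-in scaling, where 32.2% were. At least 2-fold lower were 4 of them (8.51% of all genes) and with spike-in scaling 2 (4.12%), and the median was -0.81, or -0.41 with spike-in scaling. Idh2 was at -2.67, Idh3a at -1.47 and Sdhb at -1.28, or -2.28, -1.07 and -0.89 with spike-in scaling. No test of the pathway lists against each other was made. Among 13 transcription factors known to act on glycolytic genes, 2 were at least 2-fold higher and 3 lower, with a median of -0.02. The shares of all genes were 6.98% and 8.51%. With spike-in scaling 3 were higher and 2 lower, against 14.5% and 4.12% of all genes, with a median of 0.37. Myc, a growth-related factor that acts on many glycolytic genes, read 377 and 2193, a difference of 2.11 ± 0.20, while another of its probes gave 0.76. Eya1, a coactivator tied to fast glycolytic fibres, was at -1.67, and Foxk1 was at 1.50 ± 0.22 on a dim probe while another of its probes gave 0.39.

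**Figure D4:**
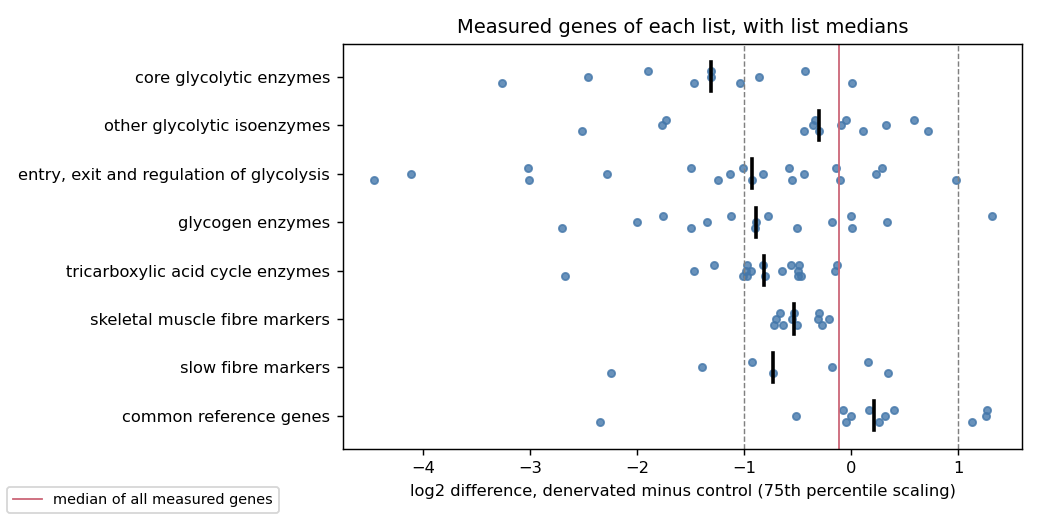
Log2 difference, denervated minus control, of each measured gene (points, spread vertically for legibility) in 8 lists after 75th percentile scaling, with 1 array per group; black bars are list medians, the coloured line is the median of all measured genes at -0.11 and dashed lines mark 2-fold. The core enzymes have a median of -1.31 and the muscle fibre markers one of -0.53.

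Other contents of the muscle differed between the pools at the same time. Beside the counts that follow, 6.98% of all genes were at least 2-fold higher and 8.51% lower. With spike-in scaling these shares were 14.5% and 4.12%. All 8 denervation response genes were at least 2-fold higher, with a median of 4.85, among them the brightest, Trim63, an atrophy ubiquitin ligase, at 2.02 and Gadd45a at 5.14. The 11 markers of fast and general muscle fibre were all below 0 with none past 2-fold and a median of -0.53, or -0.13 with spike-in scaling, where 7 of 11 were below 0. Their brightest members, Tnnc2 and Tnnt3 of the troponin complex, were at -0.50 and -0.21, and Tnnt3 was at 0.19 with spike-in scaling. Of the 7 slow fibre markers, 2 were at least 2-fold lower, or 1 by the spike-in scale. Their median was -0.73, or -0.33 with spike-in scaling. The brightest of them, Myl3 and Myh7, were at -0.93 and -0.73, while another Myl3 probe gave -2.13. All 10 myeloid markers were above 0 and 9 were at least 2-fold higher (10 with spike-in scaling), with a median of 1.74 and none at a signal of 0. Before scaling between arrays, the Lyz2 probe read 12517 in the control and 47253 in the denervated muscle. The brightest, Lyz2 and Tyrobp, were at 1.48 and 1.71. Medians of the other lists were -0.56 for endothelial, 0.12 for fibroblast, -0.73 for smooth muscle, -0.53 for red blood cell, -0.80 for adipocyte and -0.04 for Schwann cell markers. The part of these cell types in the differences of the glycolytic enzymes was not tested.

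The promoters of the 10 genes were read from RefSeq (build GRCm38.p6) as the 250 bases before each annotated start, 16 windows in all, of 32851 in the mouse. The hypoxia response core ACGTG, searched on both strands, was present in 7 of the 16 windows, of 5 genes (Aldoa, Hk2, Ldha, Pfkm and Pgk1), and in 16.6% of all windows. Windows of a gene can overlap, so for every motif a site can be counted more than once. The pair of Aldoa windows with the core overlap and hold the same match. The following 5 windows are a selection, whose genes run from Hk2 at 0.01 to Tpi1 at -3.27. It includes the only window with a MEF2 element and, for Ldha, the window with core matches. No window of Gapdh, Eno3, Aldoa, Gpi1 or Pfkm is shown. Capitals mark ACGTG on either strand, where the palindrome CACGTG counts as 2 overlapping matches, except in the Pgam2 window, where they mark the MEF2 element.
Ldha, chr7:46845554-46845803, plus strand: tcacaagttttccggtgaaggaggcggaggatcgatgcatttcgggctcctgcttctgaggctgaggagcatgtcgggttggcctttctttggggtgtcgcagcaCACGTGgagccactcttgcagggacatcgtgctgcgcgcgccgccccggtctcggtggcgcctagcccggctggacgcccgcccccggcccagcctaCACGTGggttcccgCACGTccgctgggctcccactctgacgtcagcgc
Pgk1, chrX:106186850-106187099, plus strand: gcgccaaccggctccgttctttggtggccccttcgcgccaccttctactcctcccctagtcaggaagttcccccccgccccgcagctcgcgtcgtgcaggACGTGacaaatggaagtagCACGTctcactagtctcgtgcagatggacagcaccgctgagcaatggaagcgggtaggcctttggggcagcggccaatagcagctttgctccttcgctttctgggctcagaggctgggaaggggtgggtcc
Hk2, chr6:82774455-82774704, minus strand: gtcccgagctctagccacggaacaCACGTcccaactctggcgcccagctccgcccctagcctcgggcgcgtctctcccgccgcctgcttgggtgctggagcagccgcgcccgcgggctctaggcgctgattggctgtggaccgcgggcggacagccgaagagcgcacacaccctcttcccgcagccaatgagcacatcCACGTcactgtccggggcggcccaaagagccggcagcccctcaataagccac
Tpi1, chr6:124814159-124814408, minus strand: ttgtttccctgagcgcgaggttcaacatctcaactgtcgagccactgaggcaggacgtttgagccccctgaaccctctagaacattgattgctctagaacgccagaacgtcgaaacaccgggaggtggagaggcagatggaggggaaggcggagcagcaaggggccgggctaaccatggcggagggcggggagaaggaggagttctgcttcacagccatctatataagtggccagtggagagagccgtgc
Pgam2, chr11:5803797-5804046, minus strand: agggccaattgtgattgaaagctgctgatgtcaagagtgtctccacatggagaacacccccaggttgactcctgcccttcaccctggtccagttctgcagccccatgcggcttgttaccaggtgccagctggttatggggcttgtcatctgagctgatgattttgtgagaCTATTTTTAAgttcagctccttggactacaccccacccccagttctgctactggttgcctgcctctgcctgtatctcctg

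The Ldha window shown held 5 matches to the core and the other annotated Ldha window 0, while the Pgk1 and Hk2 windows held 2 each and the Tpi1 window 0. Any link between these matches and the differences was not tested. The MEF2 element, searched by its name's usual consensus on both strands, was found in the Pgam2 window only, 80 bases before the start, and in 2.92% of all windows. The E-box CANNTG was in 13 of the 16 windows, against 66.2% of all, and CCAAT in 6 of the 16, against 33.8% of all. Neither TATAAA, present in 12.4% of all windows, nor the MEF3 element TCAGGTT, present in 3.49%, was found in these windows. A match is a description of the letters and not a site in use, and an absent match says nothing of the factor.

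After quantile normalization 4 of the 10 were at least 2-fold lower and 6 after loess centring. The order of Tpi1, Gapdh, Eno3, Pgam2, Aldoa and Hk2 was the same in all 8 settings of the plot by setting, apart from Gapdh and Eno3 with normexp. Among the genes between Pgam2 and Aldoa, Ldha and Pfkm changed places with quantile normalization, at -0.90 and -0.91.

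**Figure D5:**
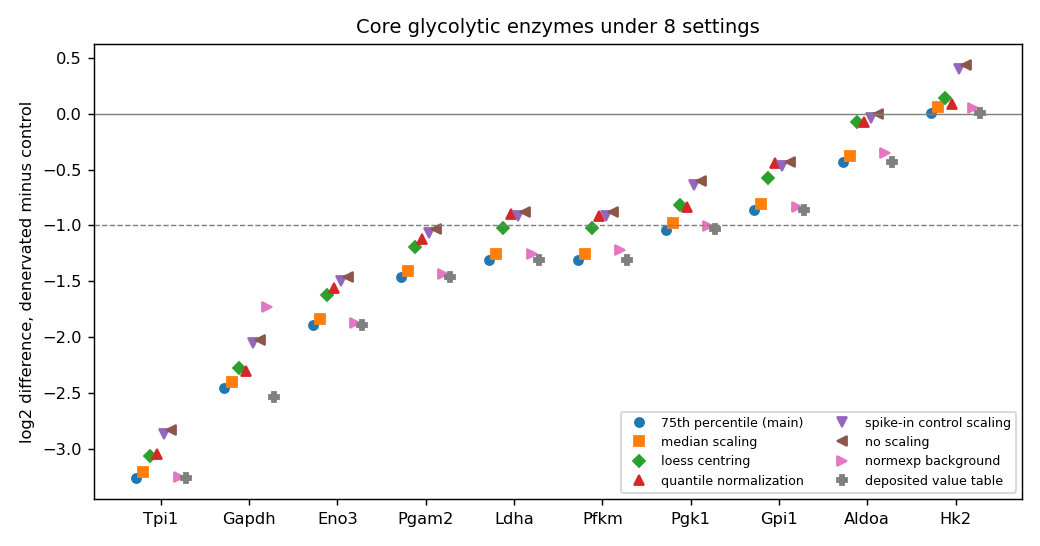
Log2 difference, denervated minus control, of the 10 core enzymes under 8 settings for scaling, background or source of values, with 1 array per group; the dashed line marks 2-fold lower. Tpi1 lies between -3.27 and -2.83 in all 8 settings and Eno3 between -1.89 and -1.46.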

How the data were processed

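Gastrocnemius RNA of 6 control and 6 denervated mice was pooled by group and read on 1 single-colour array each, both on 1 slide, so slide position and group cannot be told apart. The deposited intensity values come from Agilent Feature Extraction (release 9.5 in the submitters' processing notes, 9.5.3.1 per the file headers), which had them background-subtracted and detrended within each array and not scaled between arrays. The authors also deposited a value table, treated as a score. Set against the scanner values, this score is a rounded intensity relative to the 75th percentile of its array (coefficient of variation of the ratio 0.126% and 0.127% over spots with a score of at least 100). Its column medians were 10 and 9, its direction is that of the intensity, and it served as an alternative. No sample column was left unused.

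Marked outlier spots (87 control, 81 denervated) were left out, spots of a probe were averaged on the log2 scale, and log2 values computed from the deposited intensity were centred on each array's 75th percentile over non-control probes. There were 43379 non-control spots per array, and of all probes 70.9% (control) and 68.4% (denervated) were well above background. A gene took its measured probe (well above background on both arrays, saturated on neither) of highest mean signal. A gene above background on 1 array has a bound: the bright value over the dim array's own value or its lowest value well above background, whichever is higher. Where the own value was the higher, the result is a point value and not a bound. No test or p-value was possible with single arrays. The number of arrays limits the precision. Over 236 probes with at least 8 spots the median SD between spots was 0.08. Names came from the files or, for 23374 probes, from RefSeq by accession; positions are those of the mm8 design.

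Named were all members, the measured isoenzymes, the 3 largest differences of each pathway list and the 2 brightest genes, by mean signal, of the reference, response, fibre and myeloid lists, with other cell-type lists given by their medians. Some genes that this rule names are not reported here, though counts and medians of the lists include them. Members and lists were chosen with earlier results of these data known. Alternatives covered scaling, background (normexp, offset 50, limma 3.58.1 in R 4.3.3), the deposited table, marked and saturated spots, dim probes and the probe of a gene. The code was tested on simulated data.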

Additional observations from a re-analysis of the deposited data

How the results depend on the processing

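No paired analysis was possible because each group has 1 array, so the groups share fewer than 2 replicate numbers, and no array could be left out. The count of core enzymes at least 2-fold lower, 7 as reported, was 4 with spike-in scaling, 4 with no scaling and 4 with quantile normalization, and 6 or 7 under the other alternatives run. Their median of -1.31 became -0.91 with spike-in scaling, -0.88 with no scaling, -0.91 with quantile normalization and -1.03 with loess centring, and lay between -1.39 and -1.24 under the other settings for scaling, background, filters and probe choice. Putting the overlapping probe in place of the Gapdh probe, an alternative chosen after seeing the data, gave 6 and -1.17 after 75th percentile scaling. With spike-in scaling the overlapping probe was at -0.51, so Gapdh counts among the 4 on that scale only by its dim probe. The median of the other isoenzymes, -0.30, turned to 0.10 with spike-in scaling and 0.13 with no scaling and was otherwise between -0.33 and -0.18. Spike-in scaling and no scaling add constants of 0.40 and 0.43 to every difference. The cause of the other shifts was not tested. Over all measured genes, the share of higher genes among those past 2-fold was 45.1% after 75th percentile scaling, 77.8% with spike-in scaling, 80% with no scaling, and 50, 53.8 and 54.6% with median, quantile and loess scaling. The count of all genes at least 2-fold lower, 1313, was 636 with spike-in scaling, 596 with no scaling and 899 with normexp; at least 2-fold higher, 1077 became 2234, 2384 and 759. With dim probes left out, the Gapdh probe was no longer measured and 6 of 9 enzymes were at least 2-fold lower. Saturation limits Aldoa, 1 of whose 2 probes has no difference, and low signal over background limits Gapdh, whose difference ran from -2.54 with the deposited table to -1.73 with normexp.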
